A study of Mus musculus with 24 samples.

Results

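The whole hearts of 3 severe line (MHC-CELFΔ-10) and 3 mild line (MHC-CELFΔ-574) transgenic females were set directly against each other at 3 weeks of age, on 6 of the 24 arrays of the series. The arrays were chosen by their titles, and no wild type heart enters the contrast. All mice were FVB/N females, and all 6 transgenic mice were hemizygous for the transgene. It codes for a CELF protein that stays in the nucleus and blocks the normal ones, and the α-myosin heavy chain promoter limits it to heart muscle from birth on. The series labels the severe line as the high-expressing and the mild line as the low-expressing line. The other arrays came from 5 severe and 5 mild line hearts at 24 weeks and from wild type littermates, 2 per line at each age, which were used as the background of both lines. The lines are independent insertions of the transgene kept as separate colonies, so the dose of the transgene, its place in the genome and other differences between the colonies cannot be told apart. Each mouse was hybridized to an Illumina BeadChip, and values are log2 signals after quantile normalization between arrays, so a shift of most genes in the same direction would not be visible.

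CELF proteins bind GU-rich RNA in the nucleus and the cytoplasm, and in the nucleus they help choose which exons of a transcript are joined. In heart muscle they act on the splicing switches between the fetal and the adult heart. The dominant negative protein represses this nuclear activity in the muscle cells, and mice of both lines develop heart disease at a young age, which is milder in the mild line. The array reports the amount of transcript at 50-base probes, most of which do not tell splice forms apart.

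The lines differed at few genes, but some of the differences were large. Of 12011 genes tested, 69 (0.574%) passed an adjusted p of 0.05 in the comparison of severe with mild line hearts (limma, Benjamini-Hochberg). Of these, 54 (0.45%) were higher and 15 (0.125%) lower in the severe line. The largest difference was Cep70, a centrosomal protein gene that was on in the mild line and not detected in the severe line. The largest rises in the severe line were the atrial myosin binding protein gene Mybphl at 6.89-fold, the slow skeletal troponin T gene Tnnt1 at 4.28-fold, the M-band gene Myom2 at 4.02-fold and the homeodomain gene Hopx at 3.97-fold. The study's methods ask for a fold change of at least 2, together with either an adjusted p below 0.05 or an unadjusted p below 0.001, and 25 genes (0.208%) met this, 23 of them higher (0.191%) and 2 lower (0.0167%) in the severe line. The severe and mild arrays did not overlap at 68 of the 69 genes, Ildr2 being the exception, and at 1596 of all the genes tested (13.3%), with the severe arrays above at 5.99% and below at 7.3%. With median scaling in place of quantile normalization, 37 of 38 genes that passed were higher in the severe line (97.4%) and 1 was lower. Only 27 of the 69 genes still passed with it, though all 69 kept their sign. The weakest gene to pass had an adjusted p of 0.0439, and the first beyond it, Parm1, had 0.0509.

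The share of probes detected was 39.07 to 39.92% in the severe and 37.61 to 38.11% in the mild line, against 33.85 to 39.83% in wild type hearts at 3 weeks. The median raw intensity was 83.2 to 106.1, 76.9 to 100.8 and 71.4 to 104.8 in these groups. The 24 arrays were ranked by their lowest raw intensity and split into 12 with a higher and 12 with a lower background. The lowest intensities were 54.2 to 62.8 in the higher and 38.9 to 47.2 in the lower set. Replicates 1 and 2 of both lines lay in the higher set and replicate 3 of both in the lower, so the lines were balanced over the sets, and 0 genes passed between the sets. Number 2 of the severe hearts stood apart, with 68 genes more than 2-fold from the mean of the other severe hearts, against 13 and 29 for severe hearts 1 and 3 and 5 to 21 for the mild hearts. Without it 132 genes passed, 110 of them higher in the severe line, and 54 of the 69 were among them. Leaving out severe heart 1 gave 43 genes and severe heart 3 gave 46, and leaving out mild hearts 1, 2 and 3 gave 30, 38 and 32.

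All 69 genes kept their sign whichever heart was left out, and 20 of them passed each time. These were Mybphl, Tnnt1, Myom2, Hopx, Sln, Gria3, Whrn, Lrtm1, Dkk3, Sypl2, Crip2, Corin, Sort1, Cadps, Ccn4, Kif5c and Pigh among the higher and Ip6k3, Pcp4l1 and Cep70 among the lower genes. The other 49 lost the call without some of the hearts. Tpm3 lost it without severe heart 1 or mild heart 1, and its difference lay between 1.61 and 2.05 over the leave-outs. Rbfox1 lost it without severe heart 2, mild heart 1 or mild heart 3, with a difference of 1.02 to 1.37. Chodl, Pde1b and Tagln passed only where severe heart 2 was left out, with differences of 0.95 to 1.95, 0.95 to 1.49 and 0.64 to 1.22. Masp1, Pde1c, Litaf, 2310009B15Rik and Itgb6 passed in 0 of the leave-outs.

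The arrays differed also by the order of their title numbers, with 1662 genes that passed between runs of 6 numbers. Each run held at most 1 heart of each line at 3 weeks, and with the runs in the fit 96 genes passed.

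A probe for Celf4, a CELF family gene, served as a check of the genotype. Its signal was 12.08, 11.19 and 12.72 in the severe and 12.29, 12.30 and 12.32 in the mild line, against 6.33 to 6.49 in wild type hearts, where it was not detected. All 6 transgenic arrays were thus far above wild type, and the lines overlapped. The severe line differed from the mild line by -0.31 ± 0.23 (SE), with a 95% interval of -0.77 to 0.16 and an adjusted p of 1.0. The order that the labels of a high-expressing and a low-expressing line give was therefore not seen at this probe. The probe reads RNA, whereas the paper describes different amounts of the dominant negative protein in the lines. Protein was not measured here, so these values do not bear on that difference. Whether the probe reads the transgene was not tested, since none of the sources used here gives the sequence of the transgene. Severe heart 2 had the lowest value of the 6.

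The 69 genes differed in which line stood away from wild type. The comparisons with wild type share the 4 wild type hearts with each other and their transgenic hearts with the comparison of the lines, so their counts describe the genes and are no further evidence. Among the 54 genes higher in the severe line, 29 passed in severe against wild type hearts, where 4.62% of all genes passed (2.66% higher and 1.96% lower), and 25 passed in mild against wild type hearts, where 2.33% did (1.07% higher and 1.26% lower). In 20 genes the mild line alone passed, with medians of -0.27 in severe minus wild type and -1.09 in mild minus wild type on the log2 scale. In 24 genes the severe line alone passed, with medians of 0.83 and 0.06. Both lines passed at 5 genes and neither at 5. The genes higher in the severe line thus held some that were low in the mild line and some that were high in the severe line.

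**Figure D1:**
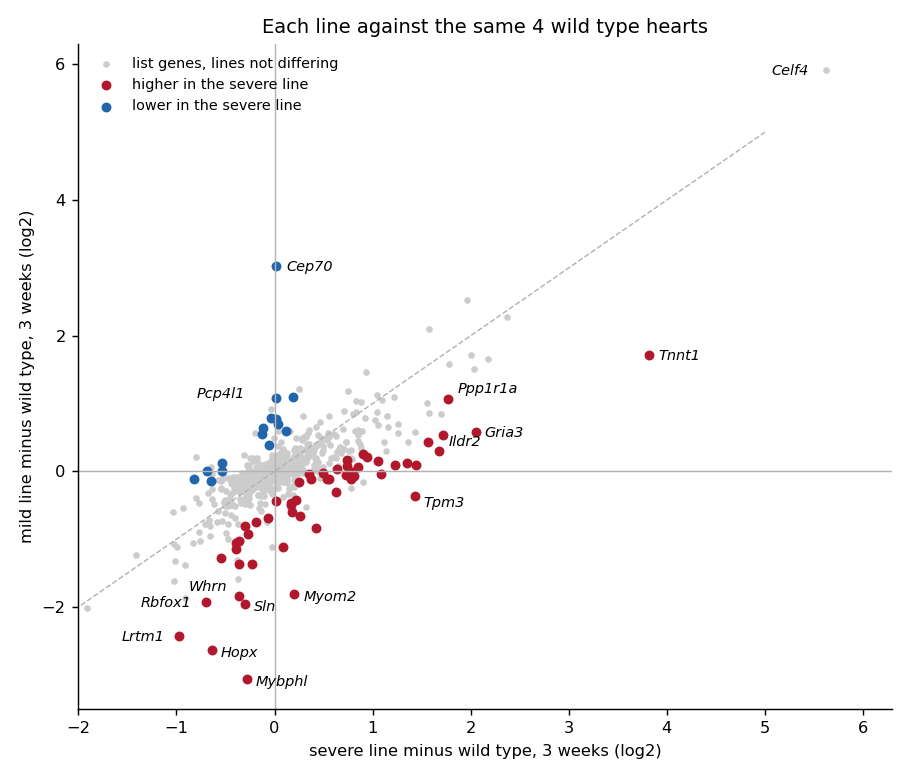
Difference from wild type at 3 weeks in the severe line (x axis) and the mild line (y axis), both in log2, for the 69 genes that differed between the lines (coloured) and the other genes of the lists (grey), with equal differences on the dashed line. Mybphl, Hopx and Lrtm1 lie far below 0 on the mild axis, Tnnt1 and Gria3 far out on the severe axis, and Cep70 at 3.03 on the mild axis and 0.01 on the severe axis. Both axes use the same 4 wild type hearts.

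Of the genes higher in the severe line, Mybphl lay furthest below wild type in the mild line, at -3.06 in log2. Hopx at -2.63 and Lrtm1 at -2.42 came next. Mybphl, a relative of the cardiac myosin binding protein that is strongest in atrial muscle, had 12.28, 12.90 and 11.81 in the severe line and 8.87, 10.47 and 9.30 in the mild line, against 12.43 to 12.88 in wild type hearts. All severe hearts lay above all mild hearts, and all mild hearts were far below the wild type range. The difference was 2.79 ± 0.30 (SE; adjusted p = 1.96e-05).

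Sln codes for sarcolipin, which slows the calcium pump of the sarcoplasmic reticulum and is an atrial gene in the mouse. It had 12.94, 13.46 and 12.30 in the severe and 10.79, 11.78 and 11.18 in the mild line, against 12.90 to 13.39 in wild type hearts. The groups of the lines did not overlap, and the difference was 1.65 ± 0.25 (adjusted p = 0.00108). Dkk3, a secreted protein of the Dickkopf family, was also higher in the severe line, with 10.82, 10.91 and 10.00 against 9.34, 9.62 and 9.13 in the mild line (1.22 ± 0.20, adjusted p = 0.00199). Its wild type range of 10.15 to 10.68 held 0 of the mild hearts, all of which were lower.

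Mybphl, Sln and Dkk3 were the 3 of 14 tested atrial genes that passed, and 11 of the 14 were above 0. Over all genes, 0.45% passed with a higher level in the severe line. The list's median was 0.23, against -0.01 over all genes. Myl7, the atrial regulatory light chain, differed by 1.21 and Myl4, the atrial essential light chain, by 0.47, with adjusted p of 0.365 and 0.398, while Nppa, which codes for the atrial natriuretic peptide, differed by 0.17 (adjusted p = 0.973). The summed linear signal of the list ran from 63900 to 90900 in severe, from 45200 to 61300 in mild and from 70000 to 83300 in wild type hearts, and none of the 14 was undetected on all 6 arrays. Fewer atrial cells in a sample and less RNA per cell cannot be told apart in whole hearts, and the part of the atrial share in these differences was not tested.

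Myom2 codes for an M-band protein that ties myosin filaments together. Its signal was 12.06, 12.43 and 12.26 in the severe line and 10.37, 11.22 and 9.13 in the mild line, against 11.85 to 12.44 in wild type hearts. The severe hearts lay close together within or near the wild type range, whereas the mild hearts were spread widely, all of them lower. The difference was 2.01 ± 0.34 (adjusted p = 0.00321). It was the only one of 27 tested sarcomere and M-band genes that passed, with a list median of 0.00. Myot, a Z-disc gene, had a difference of -0.97 with an adjusted p of 0.0741.

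Whrn, which codes for the scaffold protein whirlin, had 9.08, 9.65 and 9.64 in the severe and 8.06, 7.99 and 7.89 in the mild line, against 9.55 to 10.02 in wild type hearts. The mild hearts lay close together and below all others, and the difference of 1.47 ± 0.15 had an adjusted p of 7.04e-06. Lrtm1, a leucine-rich repeat membrane protein gene, was below wild type in both lines. It had 10.89, 11.37 and 10.60 in the severe line and 9.48, 9.57 and 9.46 in the mild line, against 11.65 to 12.26 in wild type hearts, and differed between the lines by 1.45 ± 0.20 (adjusted p = 0.000314). The mild line thus held the lowest values and the severe line lay between it and wild type.

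Crip2, a LIM domain protein of heart and vessels, differed by 1.12 ± 0.14 (adjusted p = 7.22e-05), with 13.56 ± 0.27 in the severe and 12.44 ± 0.32 in the mild line (SD, n = 3 each), against 13.80 ± 0.04 in wild type hearts (n = 4). Corin, the protease that activates the natriuretic peptides, averaged 11.10 ± 0.37 in the severe and 10.09 ± 0.32 in the mild line, against 11.46 ± 0.13 in wild type hearts (1.01 ± 0.16, adjusted p = 0.00193). Sort1, the sorting receptor sortilin, had the least spread of these genes, with 10.81, 10.98 and 10.93 in the severe and 9.91, 10.10 and 9.95 in the mild line, against 10.57 to 10.79 in wild type hearts. Its difference was 0.92 ± 0.12 (limma, adjusted p = 0.000151). Of 3 other probes 1 gave 0.91, but it covers nearly the same stretch and is no separate reading. The others, not detected on all 6 arrays, gave -0.06 and 0.09.

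Smaller differences among the genes that were low in the mild line included the sulfonylurea receptor Abcc8 at 0.66, which is a subunit of ATP-sensitive potassium channels, the atrial and conduction gap junction gene Gja5 at 0.66, and the matricellular gene Ccn4 at 0.78. The complement protease gene Masp1 had 8.81, 8.90 and 8.90 in the severe and 7.81, 7.78 and 7.27 in the mild line (1.25 ± 0.28, adjusted p = 0.0336), and neither line passed against wild type. Ppp1r1b, which codes for an inhibitor of protein phosphatase 1, was below wild type in both lines. It was detected on 0 of the 3 mild arrays and was at least 1.47-fold higher in the severe line (adjusted p = 0.0195).

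**Figure D2:**
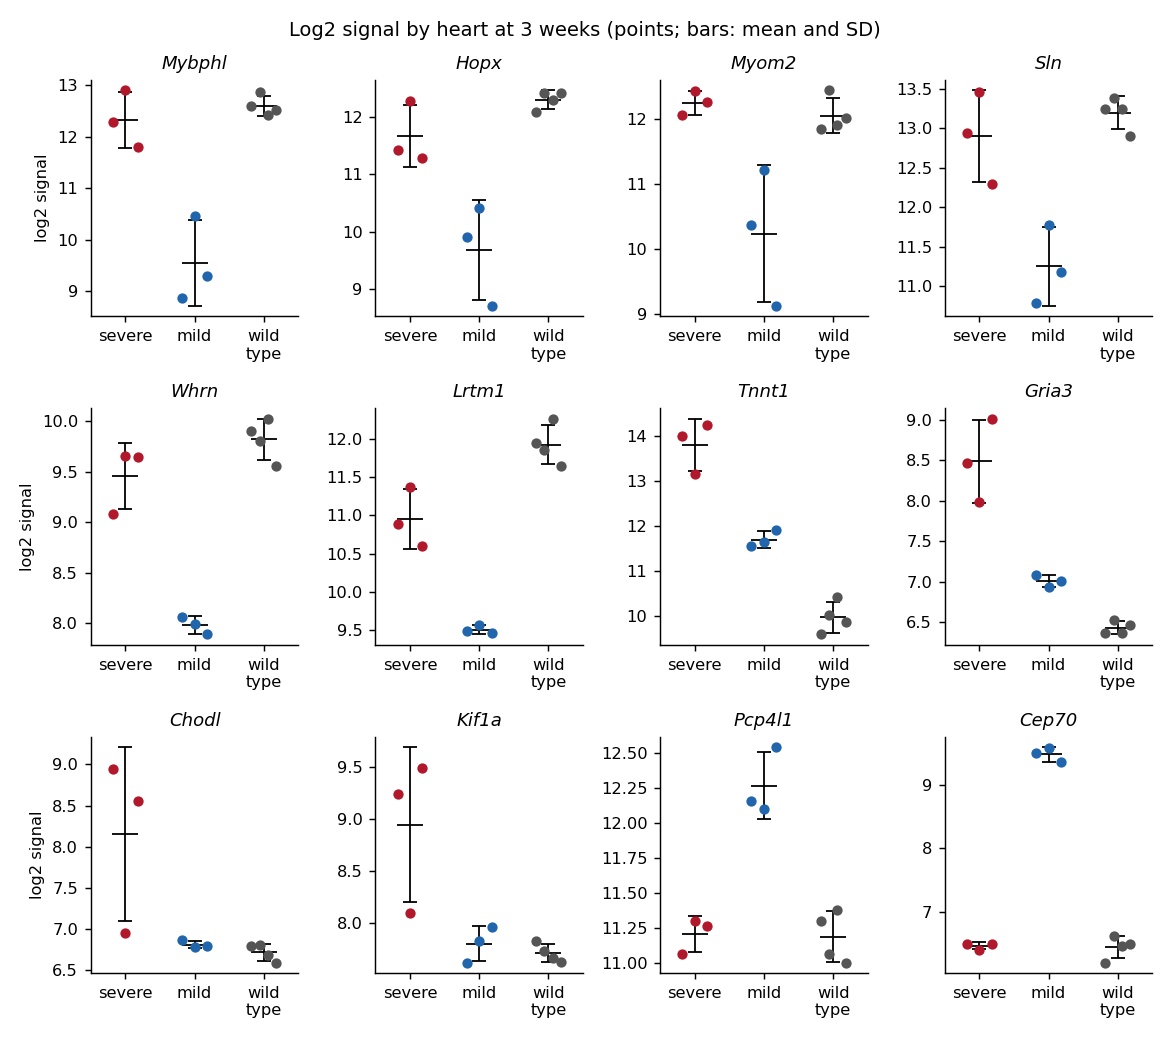
Log2 signal of 12 genes in each heart at 3 weeks, with the severe line left, the mild line in the middle and wild type right, and the mean and SD of each group as bars. In Mybphl, Hopx, Myom2, Sln, Whrn and Lrtm1 the mild hearts are the lowest. In Tnnt1, Gria3, Chodl and Kif1a the severe hearts are the highest, with heart 2 the lowest of the severe hearts, and in Pcp4l1 and Cep70 the mild hearts are the highest. Each panel has its own axis.

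Hopx has no DNA binding of its own and restrains serum response factor (SRF), a transcription factor that binds CArG boxes and drives muscle and growth genes. Hopx had 11.42, 12.28 and 11.29 in the severe and 9.90, 10.41 and 8.71 in the mild line, against 12.08 to 12.42 in wild type hearts. Severe heart 2 lay within the wild type range, the other severe hearts below it, and all mild hearts lower still. The difference between the lines was 1.99 ± 0.31 (adjusted p = 0.00153), with -0.64 in severe minus wild type (adjusted p = 0.264) and -2.63 in mild minus wild type hearts (adjusted p = 6.24e-06).

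The promoter of Hopx is shown because it was among the few promoters of the 69 genes to hold the motif that SRF binds. Windows of 250 bases before to 50 after the start were taken from RefSeq (GRCm38.p6), and searched for CC, then 6 bases that are each A or T, then GG, which is the same motif on both strands. Of the 69 genes, 49 had a window, with 67 windows in all. The motif was found in 2 of the 67, those of Hopx and Itgb6, and in 1.63% of all 32851 windows. Hopx lies at chr5:77115074-77115373 on the minus strand, with the motif starting 83 bases before the start. Itgb6 lies at chr2:60673644-60673943 on the minus strand, with the motif 50 bases before the start. The motif is in capitals, and a match is a description of the letters only.
Hopx promoter: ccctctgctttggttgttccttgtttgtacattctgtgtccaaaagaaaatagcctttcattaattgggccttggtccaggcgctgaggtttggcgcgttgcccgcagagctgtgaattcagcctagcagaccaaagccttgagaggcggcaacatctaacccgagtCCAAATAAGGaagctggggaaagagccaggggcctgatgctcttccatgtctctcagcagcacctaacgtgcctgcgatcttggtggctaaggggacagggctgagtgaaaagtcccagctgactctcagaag
Itgb6 promoter: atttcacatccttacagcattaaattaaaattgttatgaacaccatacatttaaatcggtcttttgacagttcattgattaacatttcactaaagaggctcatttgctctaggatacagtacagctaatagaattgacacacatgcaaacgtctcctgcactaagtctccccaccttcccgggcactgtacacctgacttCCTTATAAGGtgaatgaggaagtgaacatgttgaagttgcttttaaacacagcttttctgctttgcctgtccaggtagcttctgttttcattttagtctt

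Hopx was the only one of 11 tested genes of SRF and its cofactors that passed. Srf itself had 10.23, 10.21 and 10.44 in the severe and 10.18, 10.23 and 10.46 in the mild line, against 9.90 to 10.15 in wild type hearts, a difference of 0.00 with a 95% interval of -0.24 to 0.25. The lines overlapped throughout. Fhl2, another restraint of SRF, had 10.88, 11.47 and 10.89 in the severe and 10.19, 10.13 and 10.07 in the mild line, against 11.86 to 12.16 in wild type hearts. Its groups did not overlap and the mild line was lowest, but the difference of 0.95 ± 0.33 had an adjusted p of 0.4.

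Of 33 tested SRF targets, 1 was higher and 0 lower in the severe line, where 0.45% and 0.125% of all genes were. Of the 33, 26 were above 0, with a median of 0.17, against -0.01 over all genes. The target that passed was Tagln, a smooth muscle actin binding protein gene, with 7.81, 6.97 and 8.12 in the severe line and 6.82, 6.71 and 6.72 in the mild line (0.88 ± 0.20, adjusted p = 0.0418). Rcan1, an inhibitor of calcineurin, had 12.54, 12.09 and 12.44 in the severe and 11.42, 11.03 and 12.02 in the mild line, against 10.56 to 10.75 in wild type hearts, with a difference of 0.87 ± 0.23 and an adjusted p of 0.114. The severe hearts were highest and did not overlap the mild hearts. For skeletal actin Acta1 the difference was -0.09 (95% interval -0.49 to 0.32), for Fhl1 0.23 (-0.25 to 0.71), for Tpm2 0.33 (-0.10 to 0.75), for Egr1 0.35 (-0.48 to 1.18), for Nppb 0.20 (-0.29 to 0.69) and for Ccn2 0.53 (0.00 to 1.05). In each of these the lines overlapped, and the adjusted p was at least 0.751.

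Rbfox1, a splicing regulator that binds UGCAUG and acts beside CELF proteins on muscle exons, was the only one of 16 tested CELF and other splicing genes that passed. It had 11.07, 11.66 and 11.07 in the severe and 10.08, 10.35 and 9.71 in the mild line, against 11.80 to 12.18 in wild type hearts. Every severe heart lay above every mild heart and below every wild type heart, and the difference was 1.22 ± 0.24 (adjusted p = 0.0132). In severe minus wild type hearts it was -0.70 (adjusted p = 0.0741) and in mild minus wild type hearts -1.92 (adjusted p = 1.03e-05). Celf1 differed between the lines by 0.25 (95% interval -0.03 to 0.52) and Celf2 by 0.07 (-0.18 to 0.33).

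Among the genes that were high in the severe line, Tnnt1 and then Tpm3 differed most between the lines. Tnnt1, which codes for the slow skeletal form of troponin T, had 14.01, 13.15 and 14.25 in the severe and 11.56, 11.64 and 11.91 in the mild line, against 9.60 to 10.42 in wild type hearts. The 3 groups did not overlap, with the mild line between wild type and the severe line. The difference between the lines was 2.10 ± 0.28 (adjusted p = 0.000221). In severe minus wild type hearts it was 3.82 (adjusted p = 4.12e-09) and in mild minus wild type hearts 1.72 (adjusted p = 0.000308). Of 23 tested fetal and hypertrophic stress genes, Tnnt1 alone passed, where 0.574% of all genes did. Of the 23, 20 were above 0, and the median was 0.30, against -0.01 over all genes. Myh7, the slow and fetal myosin heavy chain, differed by 0.36 (95% interval -0.20 to 0.92).

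Tpm3 codes for tropomyosins, of which the gene makes slow muscle and non-muscle forms by alternative exons. The 5 probes of Tpm3 that were kept are printed because they gave different results, as read from the identifiers in the deposited file.
Tpm3 probe A: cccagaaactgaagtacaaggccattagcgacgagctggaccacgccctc
Tpm3 probe B: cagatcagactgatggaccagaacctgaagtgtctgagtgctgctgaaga
Tpm3 probe C: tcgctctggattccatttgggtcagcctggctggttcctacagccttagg
Tpm3 probe D: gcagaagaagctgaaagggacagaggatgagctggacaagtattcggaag
Tpm3 probe E: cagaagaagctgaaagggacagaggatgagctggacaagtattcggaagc

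Probes D and E cover the same stretch, shifted by 1 base and sharing 49. Probe A, the brightest, had 9.95, 9.07 and 9.74 in the severe and 7.67, 7.99 and 7.71 in the mild line, against 7.62 to 8.93 in wild type hearts (1.79 ± 0.33, adjusted p = 0.00731). The lines did not overlap, and the mild hearts lay with wild type. Probe C had 9.90, 8.56 and 9.92 in the severe and 6.91, 6.67 and 7.43 in the mild line, against 6.97 to 7.07 in wild type hearts, a difference of 2.46 ± 0.23 (adjusted p over all probes = 3.55e-06). Probe B had 8.57, 8.21 and 8.36 in the severe and 8.39, 8.34 and 8.32 in the mild line, a difference of 0.03 ± 0.12. The severe and mild hearts overlapped at probe B and not at probes A and C, while the mild hearts overlapped wild type at probes A and C. Probe D gave 0.53 ± 0.09, with 3 of 3 severe and 0 of 3 mild arrays detected, and the overlapping probe E gave 0.17 ± 0.12. The rise in the severe line was thus measured at some stretches of the gene and not at others.

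**Figure D3:**
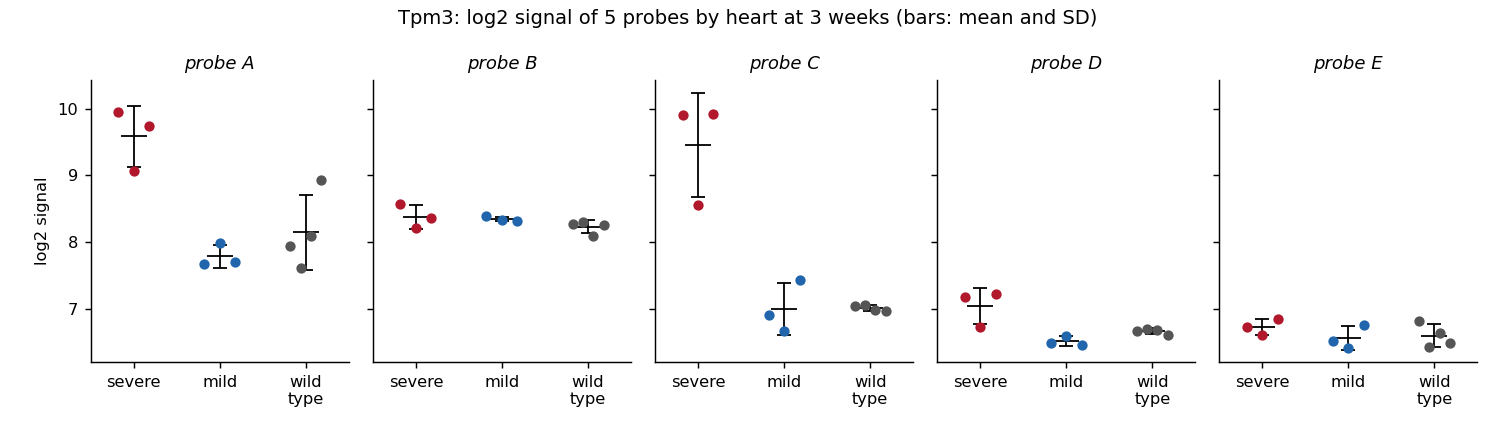
Log2 signal of the 5 Tpm3 probes in each heart at 3 weeks, with the severe line left, the mild line in the middle and wild type right, on a shared axis with the mean and SD of each group. Probes A and C are higher in the severe line by 1.79 and 2.46 log2, while probe B is level at 8.38 and 8.35.

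Gria3, a subunit of AMPA-type glutamate receptors, was at its brightest probe not detected in any wild type heart and detected in all 6 transgenic hearts. It had 8.47, 7.98 and 9.01 in the severe and 7.08, 6.93 and 7.01 in the mild line (1.48 ± 0.17, adjusted p = 2.26e-05). The other Gria3 probes gave far smaller differences. A probe detected on all 6 arrays gave 0.26 ± 0.11 (limma, adjusted p over all probes = 0.686). Another, detected on 2 severe and 0 mild arrays, gave 0.27 ± 0.08 (adjusted p over all probes = 0.22). Sypl2, which codes for mitsugumin-29, a protein of the triad junctions of muscle, had 8.42, 7.70 and 8.53 in the severe and 6.83, 6.91 and 7.26 in the mild line, against 6.76 to 6.92 in wild type hearts (1.21 ± 0.16, adjusted p = 0.000201). In both genes all severe hearts were above all mild hearts.

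Severe heart 2 was the lowest of its group at 21 of the 24 genes that passed in the severe line alone. Chodl, a membrane lectin gene, had 8.94, 6.95 and 8.56 in the severe and 6.86, 6.78 and 6.79 in the mild line, against 6.59 to 6.80 in wild type hearts. Hearts 1 and 3 were far above all others, whereas heart 2 lay just above the mild line (1.35 ± 0.28, adjusted p = 0.023). Kif1a, a motor of synaptic vesicle transport in neurons, had 9.24, 8.10 and 9.49 in the severe and 7.62, 7.83 and 7.96 in the mild line (1.14 ± 0.21, adjusted p = 0.00731). Ildr2, a membrane receptor gene, had 9.73, 8.02 and 9.67 in the severe and 7.55, 7.45 and 8.29 in the mild line, and was the gene at which the lines overlapped (1.38 ± 0.29, adjusted p = 0.023).

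The median distance from the wild type mean over the 24 genes was 0.98, 0.50 and 1.01 in severe hearts 1, 2 and 3, and 0.01 to 0.07 in the mild hearts. Over the 20 genes that passed in the mild line alone, severe heart 2 was the highest of its group at 17, with medians of -0.25, -0.03 and -0.41 in the severe and -1.07, -0.87 and -1.29 in the mild hearts. Severe heart 2 was thus the nearest of the severe hearts to wild type in both groups of genes.

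The other genes high in the severe line with the mild line near wild type covered a range of roles. Pde1b, a calmodulin-dependent phosphodiesterase, differed by 1.13, and Rab15, a GTPase of endosomes, by 1.12. The plasma glutathione peroxidase Gpx3 differed by 0.90, Cacna1h, a T-type calcium channel of the fetal and the stressed ventricle, by 0.88, and Id2, an inhibitor of basic helix-loop-helix factors, by 0.80. Actn1, the non-muscle α-actinin of focal contacts, differed by 0.78, Nupr1, a stress-induced nuclear protein, by 0.68, and the glucose transporter Slc2a1 by 0.64. Cadps, a factor of dense-core vesicle release, was detected on all 3 severe arrays and on 0 of 3 mild and 0 of 4 wild type arrays, and was at least 1.37-fold higher in the severe line (adjusted p = 0.000256). Ppp1r1a, an inhibitor of protein phosphatase 1, was above wild type in both lines, with 9.51 ± 0.25 in the severe and 8.82 ± 0.06 in the mild line, against 7.75 ± 0.18 in wild type hearts.

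The 15 genes lower in the severe line were mostly high in the mild line. In 10 of them the mild line alone passed against wild type, with medians of 0.02 in severe minus wild type and 0.74 in mild minus wild type hearts. Cep70, which codes for a centrosomal protein that binds tubulin, had 6.49, 6.40 and 6.50 in the severe line and 9.50, 9.58 and 9.36 in the mild line, against 6.20 to 6.62 in wild type hearts. It was detected on 3 of 3 mild arrays and on 0 of 3 severe and 0 of 4 wild type arrays, with the mild hearts far above all others. The severe line was at least 6.99-fold lower (adjusted p = 1.68e-14). Its probe is given because a single stretch carries the largest difference of the comparison.
Cep70 probe: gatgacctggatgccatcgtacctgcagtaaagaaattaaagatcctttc

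In the order of coding genes of GRCm38.p6, 9 genes within 10 places of Cep70 on chromosome 9 were tested, and 1 of them passed. This was Esyt3, a tether between endoplasmic reticulum and plasma membrane, 2 places away, with 6.73, 6.68 and 6.88 in the severe and 7.54, 7.54 and 7.26 in the mild line, against 6.76 to 7.04 in wild type hearts (-0.68 ± 0.13, adjusted p = 0.00797). The mild hearts were highest here as well. Pik3cb, next to Cep70 on the other side, differed by 0.05 and Mras, beyond Esyt3, by 0.40 (adjusted p of 1.0 and 0.491).

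Pcp4l1, a small protein related to the calmodulin regulator PCP4, had 11.06, 11.30 and 11.26 in the severe and 12.16, 12.10 and 12.54 in the mild line, against 11.00 to 11.38 in wild type hearts (-1.06 ± 0.14, adjusted p = 0.000183). The mild hearts alone were raised. The same held for Scgb1c1, a secretoglobin gene, at -0.89, Ip6k3, an inositol hexakisphosphate kinase of muscle, at -0.82, the phosphatase Ptp4a3 at -0.76, the scaffold gene Pdzd3 at -0.75, the sodium-hydrogen exchanger gene Slc9a3 at -0.48, which was detected on 1 of 3 severe arrays, and Syt7, a calcium sensor of membrane fusion, at -0.66. In 5 of the 15 genes the severe line alone passed against wild type. Ky, which codes for a Z-disc associated protein of muscle upkeep, had 9.62, 9.58 and 9.64 in the severe and 10.53, 10.16 and 10.28 in the mild line, against 10.29 to 10.63 in wild type hearts (-0.71 ± 0.14, adjusted p = 0.0165), so that the severe hearts were the lowest. Vamp5, a vesicle protein of muscle, differed by -0.70, the histone gene H4c11 by -0.54, the kinase anchor Akap5 by -0.51, and the integrin β6 gene Itgb6, whose promoter is printed beside that of Hopx, by -0.66.

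Of the 22 lists of pathways and gene families, none held more than 3 genes that passed. Over all genes tested, 0.45% passed as higher and 0.125% as lower in the severe line. Among 25 tested calcium cycling genes, Sln and Sypl2 were higher, with a median of 0.06, and Ryr2, the release channel, differed by 0.67 (95% interval 0.02 to 1.31, adjusted p = 0.726), phospholamban Pln by 0.53 (-0.47 to 1.53) and the calcium pump Atp2a2 by 0.30 (0.10 to 0.51, adjusted p = 0.282). Of 23 tested ion channel and conduction genes, Cacna1h and Gja5 were higher. Of 42 matrix genes, Ccn4 was higher, 35 were above 0 and the median was 0.11. Of 34 oxidative phosphorylation genes, 0 passed, 30 were below 0 and the median was -0.16, or -0.01 with median scaling, where the median of all genes was 0.11. Of 31 fatty acid oxidation genes, 0 passed, with a median of 0.05. These medians lie against -0.01 over all genes.

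Of 22 dual-specificity phosphatase and phosphatase inhibitor genes, Ppp1r1a and Ppp1r1b were higher, and of 23 tubulin and tubulin modifying genes Cep70 was lower. Of 31 glucose genes Slc2a1 was higher, but 22 were below 0 and the median was -0.11. The summed signal of this list was lower in the severe line, with 126000 to 131000 against 138000 to 145000 in mild hearts. Wild type hearts had 134000 to 140000. Of 20 stress response genes Nupr1 was higher, with 12 above 0, 8 below and a median of 0.02. None passed of 26 heat shock, 20 immediate early, 18 circadian, 22 cell cycle, 23 interferon, 22 amino acid and 25 ribosomal protein genes. Among the circadian genes Dbp differed by -1.01 and Per1 by -0.96, with adjusted p of 0.586 and 0.418.

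**Figure D4:**
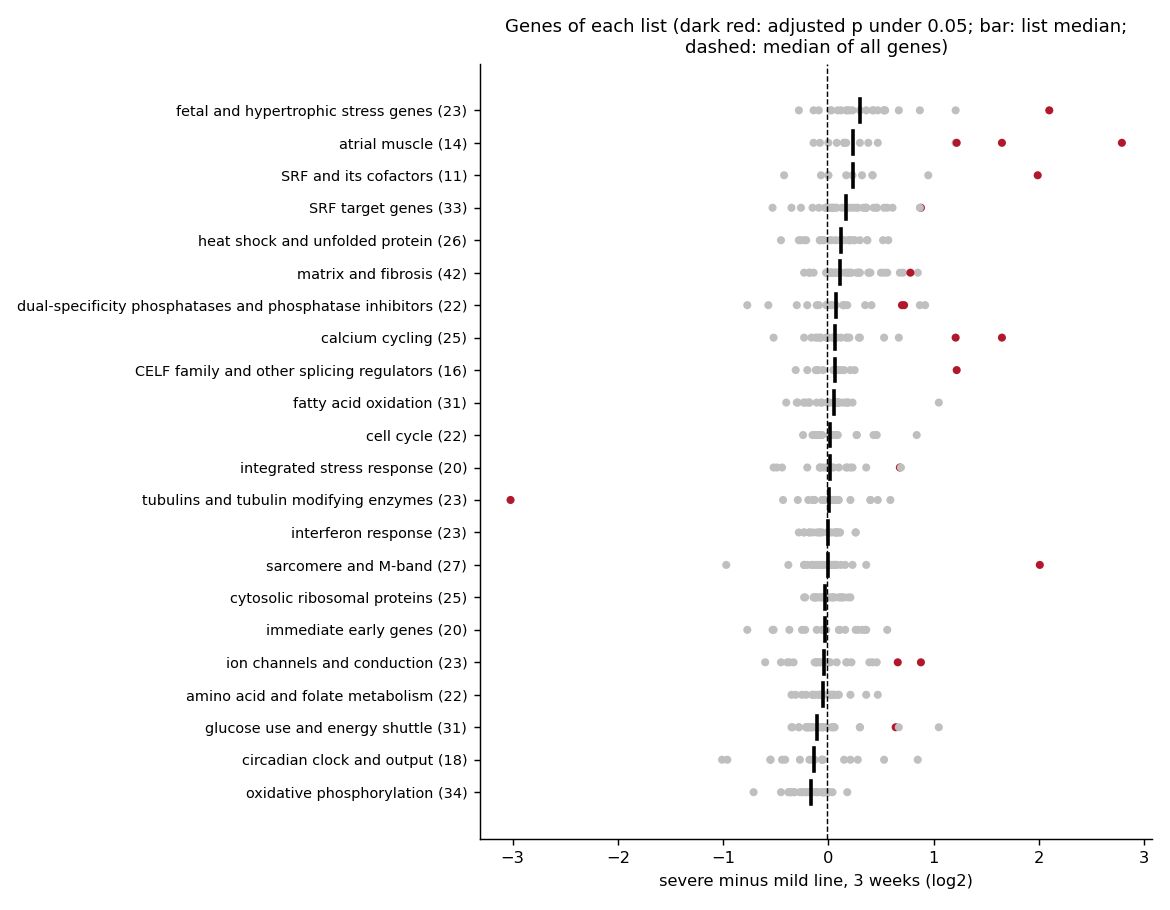
Severe minus mild difference at 3 weeks (x axis, log2) of each tested gene in 22 lists, with the number tested in brackets, genes at an adjusted p under 0.05 in dark red, each list's median as a bar and the median of all genes as a dashed line. Most list medians lie within 0.3 log2 of 0, and single genes such as Mybphl, Tnnt1, Hopx, Myom2 and Cep70 lie far from the rest of their lists.

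The hearts carried the markers of heart muscle in every group, with a summed signal of 169000 to 175000 in severe, 162000 to 178000 in mild and 153000 to 180000 in wild type hearts. Of the markers of 13 tissues or cell types, heart muscle included, only Tagln among 14 of smooth muscle and Tnnt1 among 12 of skeletal muscle passed. The summed signal of the smooth muscle list was 38400 to 58200 in severe and 37000 to 44300 in mild hearts, against 29200 to 38900 in wild type hearts, and that of the skeletal muscle list 47800 to 68000 and 45700 to 57100, against 27400 to 31600. Both sums overlapped between the lines. Sums that did not overlap were higher in the severe line. Fibroblast markers had 23200 to 27700 in severe and 20100 to 22200 in mild hearts, against 18300 to 22700 in wild type hearts. Neuron and Schwann cell markers had 6340 to 7990 and 5520 to 6020, against 4450 to 5110. Lymphocyte and thymus markers had 1740 to 1890 and 1500 to 1720, against 1680 to 1880. Among these members 9 fibroblast genes were above 0 and 5 below, with a median of 0.09. For neuron and Schwann cell genes it was 5 and 4 (median 0.29), and for lymphocyte genes 7 and 2 (median 0.05). Of the lymphocyte genes, Cd3d and Cd3g were not detected on any of the 6 arrays. The sums of the other marker lists overlapped. With 3 hearts per line, 13.3% of all single genes did not overlap either. Whether the make-up of cells differed was not tested. Of the 14 smooth muscle and pericyte markers tested, 7 were above 0 and 7 below, with a median of 0.00. Of the 12 of skeletal muscle, 4 were above 0 and 8 below, with a median of -0.11. Myh11 and Smtn, of the smooth muscle list, differed by -0.23 and -0.26. The fast skeletal genes Tnni2 and Mylpf differed by -0.29 and -0.13, and each of these genes had an adjusted p of 1.0. Acta2 differed by 0.61 (adjusted p = 0.599).

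Wild type littermates of the severe and mild lines were compared over both ages, to see whether the colonies differed without the transgene. No gene passed an adjusted p of 0.05 in 8 hearts (limma), and 171 genes (1.42%) had an unadjusted p under 0.05. At the 69 genes the littermate difference was at most 0.29 in size. The line difference in transgenic mice differed from that in littermates, by a test of the difference itself, at 16 genes (0.133%; 0.0999% higher and 0.0333% lower), all among the 69. They were Mybphl (2.57), Tnnt1 (2.03), Gria3 (1.46), Lrtm1 (1.40), Whrn (1.38), Dkk3 (1.29), Corin (1.08), Crip2 (1.06), Sort1 (0.92), Cadps (0.82), Lama5 (0.70) and Pigh (0.68) with a higher, and Cep70 (-2.97), Pcp4l1 (-1.22), Ip6k3 (-1.03) and Esyt3 (-0.94) with a lower level in the severe line. The values are log2 differences of differences. The count was 2 with median scaling, 37 with array weights, 6 without mild heart 1 and 39 without severe heart 2.

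The same lines at 24 weeks, in 5 hearts each that share no array with the 3-week hearts, showed which differences were also present in mature mice. There 1354 genes (11.3%) passed, 714 (5.94%) higher and 640 (5.33%) lower in the severe line. With median scaling 803 of 852 were higher. Of the 54 genes higher at 3 weeks, 50 had the same sign and 26 passed in the same direction at 24 weeks, which is 48.1% of the 3-week and 3.64% of the 24-week list, and 2 passed in the opposite direction. Of the 15 lower genes, all had the same sign and 12 passed, which is 80.0% and 1.88% of the lists. The median difference was 0.79 at 3 weeks and 0.40 at 24 weeks for the higher genes, and -0.70 and -0.53 for the lower genes. The genes were chosen because they passed at 3 weeks, which by itself favours larger values there. These medians therefore do not measure a change with age.

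Of the 24 genes that were high in the severe line alone, 16 passed in the same direction at 24 weeks, among them Ildr2 at 1.93, Chodl at 1.77, Kif1a at 1.63, Pde1b at 1.33, Gpx3 at 1.26 and Actn1 at 1.11. Of the 20 genes low in the mild line at 3 weeks, 6 passed in the same direction at 24 weeks, with Dkk3 at 1.59, Mybphl at 1.34, Ccn4 at 0.94, Sln at 0.83 and Sort1 at 0.76, and Nacc2 at 0.27. Hopx (0.28, adjusted p = 0.536), Myom2 (0.52, adjusted p = 0.228), Whrn (0.01) and Corin (0.07) did not pass at 24 weeks. Cep70 was lower in the severe line at 24 weeks too, by -2.80 in log2.

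The change of the line difference with age was tested directly. It passed at 44 of all genes (0.366%; 0.175% with a higher and 0.191% with a lower value at 3 weeks), and at 8 of the 69, all of them higher in the severe line at 3 weeks. The 69 genes were chosen because they passed at 3 weeks, which favours this direction. Rbfox1 had a line difference of 1.22 at 3 weeks and -0.80 at 24 weeks (difference 2.02 ± 0.30, adjusted p = 0.00124), and Lrtm1 had 1.45 and -0.52 (adjusted p = 0.000376). In both the severe line was higher at 3 weeks and lower at 24 weeks. Tnnt1 had 2.10 and 0.02 (adjusted p = 0.00499), Whrn 1.47 and 0.01 (adjusted p = 0.000376), and Sypl2 1.21 and 0.28 (adjusted p = 0.0392). Corin, Crip2 and Pigh differed with age by 0.94, 0.90 and 0.59. For Mybphl (1.44, adjusted p = 0.141), Myom2 (1.49, adjusted p = 0.186) and Hopx (1.71, adjusted p = 0.0617) a change with age was not shown.

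**Figure D5:**
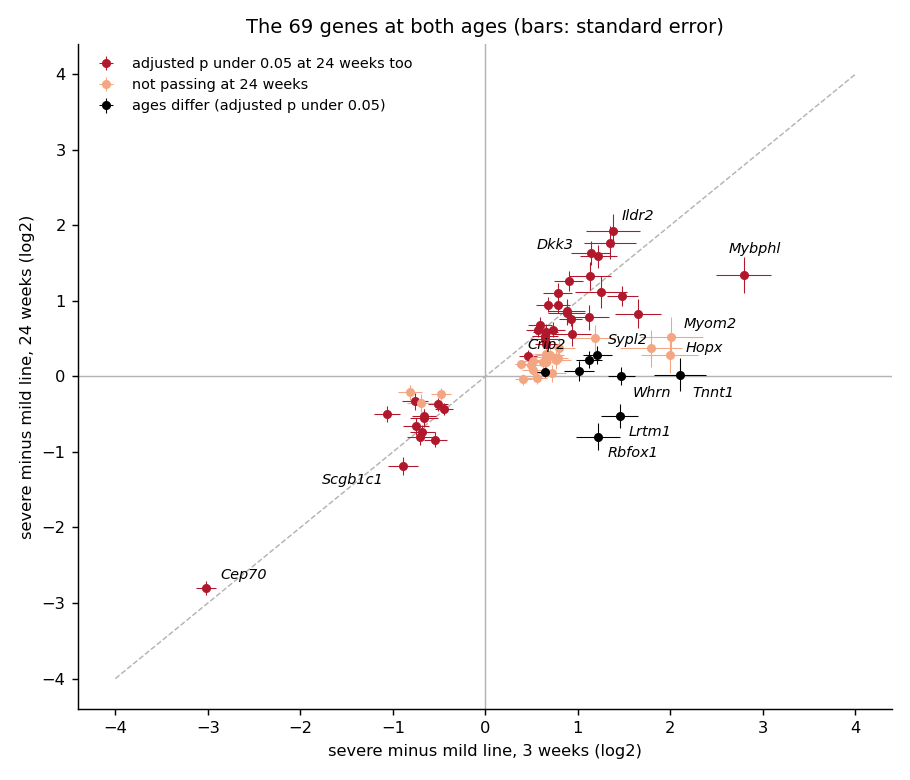
Line difference, severe minus mild, in log2 at 3 weeks (x axis) and 24 weeks (y axis) for the 69 genes, with standard errors, and equal differences on the dashed line. Cep70 lies at -3.02 and -2.80, and Tnnt1 and Whrn lie near 0 on the 24-week axis. Rbfox1 and Lrtm1 lie below 0 at 24 weeks, and black points mark the 8 genes whose difference changed with age.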

How the data were processed

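Total RNA of 24 whole hearts was hybridized to Illumina MouseWG-6 v2 arrays, 1 heart each. The deposited log2 values are quantile-normalized between arrays and ran from 5.82 to 15.16, with no background subtraction visible, so fold changes of dim genes are understated. The deposited raw intensity per probe was used for the alternatives only. The deposited detection p-value compares a probe with the negative control beads of its own array. Scanner and normalization software are named in none of the sources used here. The tables held 48 other columns with values per sample, which stayed out.

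Groups came from the sample titles. Of 45281 probes, 34885 had 1 gene symbol, 18 several and 10378 none. A probe was kept when detected (p below 0.05) on 3 or more arrays; 18907 kept probes had a symbol, and the brightest stood for each of 12011 genes. The means of 6 groups over all 24 arrays were fitted with limma 3.58.1 in R 4.3.3 (lmFit, eBayes; 8 groups for the littermates), with Benjamini-Hochberg adjustment over all genes. The steps were tested on simulated data. For a gene detected on 0 arrays of a line, a bound is given: the mean of the bright line against that of, per dim array, the larger of its lowest detected signal and the probe's own. P-values and standard errors rest on 1 variance per gene shared by all 24 arrays, not on the spread of the 6 hearts compared alone. Over the 69 genes the median SD at 3 weeks was 0.222 in severe, 0.163 in mild and 0.136 in wild type hearts. The errors can therefore be too small for genes that vary widely among severe hearts, such as Chodl (SD 1.06 in severe hearts, standard error 0.28). The number of arrays limits the precision.

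Named were up to 20 of the largest rises and of the largest falls that passed without overlap (15 falls did), the genes the paper names and up to 4 members of each list. Others were chosen after their values were seen. The members and the 35 lists were chosen with earlier results of these data known. The alternatives changed the normalization, the filter, the probe rule, the arrays and the blocks.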

Additional observations from a re-analysis of the deposited data

Results flagged for a closer look

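At 8 genes the line difference at 3 weeks minus that at 24 weeks passed an adjusted p of 0.05 (limma). The difference of differences was 0.94 for Corin, 0.90 for Crip2, 1.97 for Lrtm1, 0.59 for Pigh, 2.02 for Rbfox1, 0.93 for Sypl2, 2.08 for Tnnt1 and 1.47 for Whrn, each with the larger severe line excess at 3 weeks.

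At 16 genes the line difference in transgenic mice differed from that in wild type littermates. It was 0.82 for Cadps, -2.97 for Cep70, 1.08 for Corin, 1.06 for Crip2, 1.29 for Dkk3, -0.94 for Esyt3, 1.46 for Gria3, -1.03 for Ip6k3, 0.70 for Lama5, 1.40 for Lrtm1, 2.57 for Mybphl, -1.22 for Pcp4l1, 0.68 for Pigh, 0.92 for Sort1, 2.03 for Tnnt1 and 1.38 for Whrn.

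Single hearts far from the rest of their group were found in 6 of 105 groups looked at, over 35 genes, where chance gives about 1 in 20. In severe line hearts at 24 weeks, replicate 5 had 9.61 for Rbfox1, against 10.40 to 10.69 in the others, and 7.61 for 2900055J20Rik, against 8.25 to 8.40. In mild line hearts at 24 weeks, replicate 1 had 12.21 for Myom2, against 11.67 to 11.79, and replicate 2 had 9.77 for Hopx, against 10.18 to 10.29. Replicate 3 had 6.71 for Sypl2, against 6.98 to 7.03, and replicate 5 had 7.58 for Akap5, against 7.20 to 7.28.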

How the results depend on the processing

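Of the 69 genes, 20 passed whichever of the 6 hearts was left out, and all 69 kept their sign in each of these and in each of the 23 settings (of which detection on all 24 arrays left 56 to test). Leaving out a heart moved the count to between 30 and 132, that of the study's thresholds (25) to between 24 and 36, the count at 24 weeks (1354) to between 1098 and 1409, the excess over littermates (16) to between 6 and 39, the change with age (44) to between 23 and 78 and that of the littermates to 0 in each case. The change with age passed at 24 genes without severe heart 2 or mild heart 1, 23 without mild heart 3, 70 without severe heart 1 and 78 without severe 24-week heart 5. The excess passed at 39 genes without severe heart 2, at 6 without mild heart 1, at 10 without severe heart 1 or mild heart 3, and at 8 to 10 without 1 of 3 severe line littermates (both of 3 weeks, and replicate 1 of 24 weeks).

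Median scaling of the raw intensities moved the median of all genes to 0.11 and gave 38 genes, 37 of them higher (97.4%, against 54 of 69 before). It gave 852 genes at 24 weeks, 803 of them higher, 2 genes for the excess and 14 for age. Normexp background correction gave 46 genes at the study's thresholds. Only the 6 arrays gave 14 genes, array weights 269, 2159 at 24 weeks, 37 for the excess and 133 for age, and a block for runs of title numbers 71 for age. Inside the higher background set 22 genes passed and inside the lower set 5, with the sign of all 69 unchanged in both. Testing every probe on its own, an alternative chosen after seeing the data, called 70 genes, of which 62 were among the 69. The cause of these changes was not tested.

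With the replicate number as a block, in the 6 arrays alone, 55 genes passed, against 14 without it; in the 10 arrays of 24 weeks the block gave 1132 genes. Severe and mild hearts of the same number at 3 weeks lay in the same run of title numbers and in the same background set. The labels do not call the number a pairing, and the correlations of same-numbered hearts were -0.041, 0.352 and 0.261, so the block was kept as an alternative. With 3 hearts per line, small differences and dim genes are not resolved.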

Other observations

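Some of the 69 genes lay near each other in the gene order of GRCm38.p6, as was noticed after the results were seen. Of the 68 that could be placed, 8 pairs lay within 10 coding genes. Mybphl (2.79) and Sort1 (0.92) are neighbours on chromosome 3, and Sypl2 (1.21) follows after Psma5, a proteasome subunit gene, at 0.11 (adjusted p = 1.0). Celsr2 and Atxn7l2, on the same chromosome, differed by 0.04 and 0.03. Mybphl and Sort1 were low in the mild line, whereas Sypl2 was high in the severe line. Pde1b (1.13) and Ppp1r1a (0.70) are neighbours on chromosome 15, and Cep70 (-3.02) and Esyt3 (-0.68) lie 2 places apart on chromosome 9. Cacna1h (0.88) and Gng13 (0.94) lie 5 places apart on chromosome 17. On chromosome 12, Actn1 (0.78) and Pigh (0.64) lie 9 places apart, and so do Akap5 (-0.51) and Rab15 (1.12), which went opposite ways. How many such pairs any other 68 genes would give was not tested.

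Of the 69 genes, 29 had further kept probes. There were 48 such probes, and 20 of them were detected on all 6 arrays. All 20 had the sign of the gene's main probe, 5 of them at an adjusted p under 0.05 over all probes (limma). The 20 include Tpm3 probe B at 0.03. They also include the Sort1 probe that covers nearly the same stretch as the main probe, which is 1 of the 5. Among the probes not detected on all 6 arrays some had the opposite sign, such as those of Sypl2 (-0.09) and Syt7 (0.15).

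Socs3, a feedback inhibitor of cytokine signalling, met the study's thresholds by its raw p alone, with 8.48, 9.44 and 7.87 in the severe and 7.60, 7.49 and 7.63 in the mild line (1.02 ± 0.25, adjusted p = 0.0627). Parm1, the other such gene, differed by 1.08.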
